A study of Homo sapiens with 12 samples.

Results

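The nuclear lamina and inner nuclear membrane are described here through 10 genes, taken from the count table by symbol out of 58037 identifiers: the lamins LMNA, LMNB1 and LMNB2, the LEM domain genes TMPO, EMD and LEMD3 with their partner BANF1, the lamin B receptor gene LBR, and SUN1 and SUN2. The genes were selected on their RNA counts in vehicle and DOX samples, with earlier results of that contrast in view, so their DOX values are a description. Counts of these genes past a test's threshold are set beside the share of all genes and are no evidence about the 10, and no p-values are given for them in that contrast. RNA was sequenced from DU-145 cells, an established prostate cancer line, and from LNCaP-AI cells, a line grown from C4-2B cells by more than 6 months of culture without androgen. Both lines carried a tetracycline-inducible shRNA against MUC1, and each had 3 vehicle cultures and 3 cultures given doxycycline (DOX), at 500 ng/ml for 7 days by the methods. The labels name the vehicle groups shCTL and the DOX groups shMUC1, while the design text and the methods describe a single construct with vehicle or DOX. A control shRNA treated with DOX was not analysed here, so an action of DOX itself and of the shRNA cannot be told apart. The labels give charcoal-stripped, phenol red-free medium for both lines, whereas the methods list ordinary serum for DU-145 cells. Neither source says whether a line was 1 clone.

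The lamina is a mesh of A-type lamins, encoded by LMNA, and B-type lamins, encoded by LMNB1 and LMNB2, under the inner nuclear membrane. It is held to the membrane and to chromatin by LBR and by LEM domain proteins, among them the products of TMPO, EMD and LEMD3, which bind the small chromatin protein encoded by BANF1. SUN1 and SUN2 span the inner membrane and couple the lamina to nesprins and so to the cytoskeleton. B-type lamins and LBR are known to be abundant in cycling and poorly differentiated cells, whereas A-type lamin rises with differentiation and tissue stiffness.

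Total counts ranged from 10423437 to 13544153 in DU-145 and from 16569613 to 26961777 in LNCaP-AI samples. MUC1, the target of the shRNA, was at 74, 60 and 59 counts in the DU-145 vehicle samples and at 3 in each DOX sample. In the LNCaP-AI vehicle samples its counts were 36, 25 and 52, and in the DOX samples 8, 6 and 3. FOLH1, a marker of the LNCaP lineage, had 12428 to 22813 counts in the LNCaP-AI samples and 0 counts in every DU-145 sample. The summed level of 9 markers of leukocytes, endothelium, stroma and blood was 2.29 to 4.9 CPM (counts scaled to library size) in DU-145 and 23.1 to 33.8 CPM in LNCaP-AI samples. COL1A1 was the highest of them, at 1.88 to 3.76 CPM in DU-145 and 16.6 to 24.1 CPM in LNCaP-AI samples. VWF followed in LNCaP-AI samples, at 2.8 to 7.9 CPM, and CD3E was at 0 in all samples. The LNCaP-AI samples were divided across treatment. A first principal component with 79.56% of their variance grouped vehicle 1 with DOX 2 and DOX 3, and DOX 1 with the vehicle samples 2 and 3. CD44 counts followed this division, at 0, 1 and 3 on the first side, and at 1483, 2405 and 1706 on the second. MUC1 counts ran the way of the labels in this line, with every DOX sample below every vehicle one. Separate cultures and exchanged samples cannot be told apart as the source of the division. Its part in the values below was not tested. Where a gene's LNCaP-AI difference of DOX against vehicle is printed, it is therefore also given within both sides. The first value is for DOX 2 and DOX 3 against vehicle 1, and the second for DOX 1 against vehicle 2 and vehicle 3.

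The promoter sequences below are those of TMPO, LMNB1 and LMNB2, whose RNA was lower with DOX in both lines, and of LMNA, whose RNA was not. Each is the 150 bases before a RefSeq start on GRCh38.p14, written 5′ to 3′ on the gene's strand, with capitals marking the motifs found. None overlaps an annotated exon of its own gene, and exons of other genes were not checked. The other starts of TMPO, LMNA and LMNB1 and the LBR window, which overlaps annotated exons, are not printed. TMPO lies at chr12:98515423-98515572 (plus strand), LMNB1 at chr5:126776473-126776622 (plus strand), LMNB2 at chr19:2456960-2457109 (minus strand) and LMNA at chr1:156082423-156082572 (plus strand).
TMPO: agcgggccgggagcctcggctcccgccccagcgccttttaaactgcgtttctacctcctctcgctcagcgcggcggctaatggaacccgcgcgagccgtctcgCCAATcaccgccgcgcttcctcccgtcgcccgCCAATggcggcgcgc
LMNB1: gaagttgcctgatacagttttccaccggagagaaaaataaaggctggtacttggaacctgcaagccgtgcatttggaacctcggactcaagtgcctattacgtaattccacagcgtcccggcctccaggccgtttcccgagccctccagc
LMNB2: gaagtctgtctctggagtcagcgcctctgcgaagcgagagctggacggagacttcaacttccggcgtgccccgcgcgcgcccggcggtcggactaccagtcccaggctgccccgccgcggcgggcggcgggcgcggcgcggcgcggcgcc
LMNA: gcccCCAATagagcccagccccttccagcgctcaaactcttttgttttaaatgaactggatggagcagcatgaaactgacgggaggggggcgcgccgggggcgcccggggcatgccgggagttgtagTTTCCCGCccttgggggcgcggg

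The capitals mark CCAAT boxes at positions -47 and -15 of TMPO and at -146 of LMNA, and an E2F-type motif at -23 of LMNA, counted with the start base as 0. The search covered windows from 250 bases before to 50 bases from the start, on both strands, for the E2F-type motifs TTTCCCGC, TTTGGCGC, TTTCGCGC and TTTGCCGC, the CHR motifs TTTGAA and TTCGAA, the CCAAT box and the E-box CACGTG. RefSeq windows were found for 9 of the 10 genes, 15 windows in all, since 4 genes have several starts. A gene was counted if any of its windows held a motif, whereas the shares over all promoters are per window. The units are thus unlike, and several starts raise a gene's chance of a match. Over all 35116 windows, 34.6% held a CCAAT box, and 6 of the genes did (LMNA, LMNB1, TMPO, EMD, LEMD3 and SUN2). An E2F-type motif was in 3.31% of all windows and in those of LMNA and LEMD3, and a CHR motif was in 16.4% and in those of LMNB2 and SUN2. The E-box was in 7.26% of windows and, of these genes, in that of LMNB1, at -122 of its other start. No motif was common to TMPO, LBR, LMNB1 and LMNB2, and a match is a description of letters only.

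In DU-145 cells, TMPO and LBR had the largest differences of the 10 genes, both lower with DOX. The B-type lamin genes LMNB1 and LMNB2 were also lower, by less, whereas the A-type lamin gene LMNA was higher. SUN2 was lower and EMD slightly higher. In all, 7 of 10 genes passed the threshold of edgeR's quasi-likelihood test (Benjamini-Hochberg adjusted p under 0.05), 2 higher and 5 lower. Among all 13644 genes tested, 51.5% passed, 26.3% higher and 25.3% lower. The vehicle and DOX samples did not overlap for 8 of the 10 genes, 2 higher and 6 lower with DOX, against 57.4% of all genes, 29.6% higher and 27.7% lower. The median log2 difference was -0.29 over the 10 genes and 0.0006 over all genes. In a single fit with the LNCaP-AI samples 4 of the 10 passed, TMPO, LBR, LMNB1 and LMNB2, against 24.3% of all genes.

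In LNCaP-AI cells, 5 of the 10 genes passed the same threshold, and each of them was lower with DOX: TMPO, LBR, LMNB1, LMNB2 and SUN1. Among all 16030 genes tested, 12.7% passed, 7.22% higher and 5.52% lower. The vehicle and DOX samples did not overlap for 6 of the 10 genes, all lower with DOX, against 37.4% of all genes, 19.8% higher and 17.6% lower. The median log2 difference was -0.44 over the 10 genes and -0.05 over all genes. None of the 10 passed in edgeR without DOX 2 or without DOX 3, when 6 of 10 still had an unadjusted p under 0.05. The same held for 3204 of 15807 and 3201 of 15816 genes, and 1 gene of the whole table was called in each case. Of the 10, 3 were called without vehicle 1 (13.8% of all genes), 3 without vehicle 2 (7.25%) and 2 without vehicle 3 (6.64%). TMPO, LBR, LMNB1, LMNB2 and SUN1 had every DOX sample below every vehicle sample in both lines, though SUN1 did not pass in DU-145 cells. The share of all genes that were below in both lines was not counted.

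**Figure D1:**
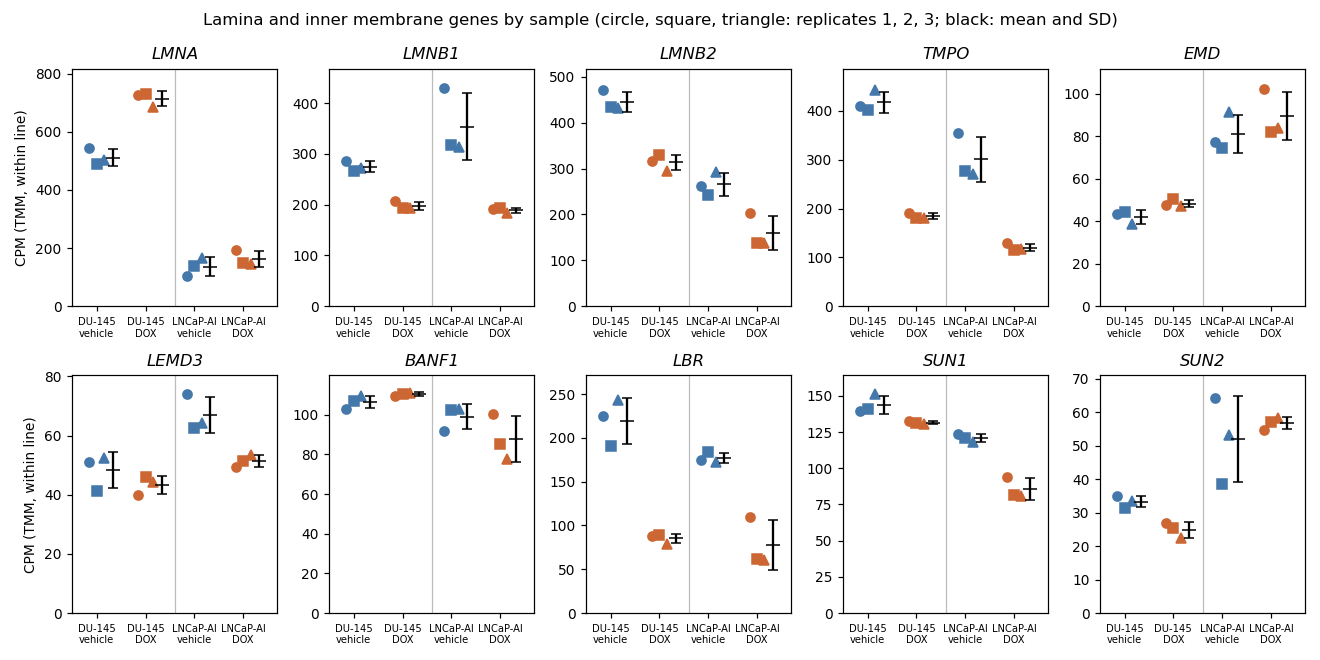
Each panel plots 1 gene, with the level in CPM (TMM-normalised within a line) on the vertical axis and the 4 groups on the horizontal axis. Blue symbols are vehicle and orange symbols DOX samples, circles, squares and triangles are replicates 1, 2 and 3, and black marks give the mean and SD (n = 3). TMPO, LBR, LMNB1, LMNB2 and SUN1 had every DOX sample below every vehicle sample in both lines. LMNA had every DOX sample above vehicle in DU-145 cells and overlapping samples in LNCaP-AI cells.

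TMPO encodes the thymopoietins or LAP2 proteins, which bind lamins and chromatin. In DU-145 cells its levels were 409, 402 and 442 CPM with vehicle and 192, 179.8 and 181 CPM with DOX. The DOX samples were all below the vehicle samples, and the means were 418 ± 21.4 and 184 ± 6.52 CPM (SD, n = 3), a log2 difference of -1.18 (SE 0.0695). In LNCaP-AI cells the levels were 354, 276 and 272 CPM with vehicle and 129, 114 and 117 CPM with DOX. Again no samples overlapped, and the means were 301 ± 46.6 and 120.0 ± 7.69 CPM (SD, n = 3), a log2 difference of -1.32 (SE 0.128). The LNCaP-AI difference was -1.62 and -1.09 within the 2 sides, so vehicle 1, the highest vehicle sample, set the larger of them. The TMPO call in LNCaP-AI cells was lost in 3 of 14 alternatives, with no change of direction. TMPO lies on chromosome 12 of GRCh38 from 98515579 to 98550351 (plus strand) and overlaps the antisense RNA gene TMPO-AS1. TMPO-AS1 was also lower with DOX, from 12.7 to 8.44 CPM in DU-145 means (log2 difference -0.59, SE 0.148). In LNCaP-AI means it went from 12.7 to 5.06 CPM (-1.32, SE 0.166, -1.44 and -1.14 within the 2 sides). The libraries were stranded, but the strand setting of the counting was not given in the sources used here, so reads of the pair may not be separated.

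LBR encodes the lamin B receptor, which binds B-type lamins and heterochromatin protein and also has sterol reductase activity. With vehicle, DU-145 cells had 224, 191 and 243 CPM, and with DOX 88.1, 88.7 and 79.0 CPM. The groups were widely apart, at 219.6 ± 26.4 and 85.3 ± 5.43 CPM (SD, n = 3), a log2 difference of -1.37 (SE 0.0844). In LNCaP-AI cells vehicle samples had 175, 183 and 173 CPM and DOX samples 110.1, 61.6 and 60.4 CPM. All DOX samples were below vehicle, but DOX 1 stood well above DOX 2 and DOX 3, and the means were 177 ± 5.72 and 77.4 ± 28.4 CPM (SD, n = 3, log2 difference -1.19, SE 0.247). Within the 2 sides the difference was -1.52 and -0.69. The LBR call in LNCaP-AI cells was lost in 6 of 14 alternatives, although its direction did not change.

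Among the B-type lamins, LMNB1 in DU-145 cells had 287, 266 and 273 CPM with vehicle and 207, 193.7 and 193.7 CPM with DOX. These groups did not overlap, with means of 275 ± 10.7 and 198 ± 7.74 CPM (SD, n = 3) and a log2 difference of -0.47 (SE 0.0671). In LNCaP-AI cells the vehicle samples had 429, 318 and 314 CPM and the DOX samples 190.7, 192.7 and 183 CPM. The DOX samples lay close together while vehicle 1 was far above the other vehicle samples, and the log2 difference was -0.90 (SE 0.139), or -1.19 and -0.73 within the 2 sides. This LMNB1 call was lost in 3 of 14 alternatives, with no change of direction. LMNB2 was at 471, 434 and 431 CPM with vehicle and 316, 329 and 295 CPM with DOX in DU-145 cells, again without overlap (log2 difference -0.51, SE 0.0711). In LNCaP-AI cells LMNB2 had 262, 242 and 292 CPM with vehicle and 203, 138 and 137 CPM with DOX. As for LBR, DOX 1 was the DOX sample nearest to vehicle, and the log2 difference of -0.74 (SE 0.178) became -0.93 and -0.40 within the 2 sides. This LMNB2 call was lost in 6 of 14 alternatives, with no change of direction.

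LMNA, the source of lamins A and C, was not lower with DOX in either line. Its DU-145 levels were 544, 488 and 501 CPM with vehicle and 726, 731 and 685 CPM with DOX. The DOX samples were all above vehicle, with means of 511 ± 29.0 and 714 ± 25.0 CPM (SD, n = 3) and a log2 difference of 0.48 (SE 0.0721). In LNCaP-AI cells LMNA had 102, 139.9 and 166 CPM with vehicle and 193, 148 and 145 CPM with DOX. These samples overlapped, and the difference of 0.25 (SE 0.205) did not pass the threshold, with 0.52 and 0.34 within the 2 sides. With the side as a covariate, a fit chosen after seeing the data, the LMNA difference in LNCaP-AI cells was 0.43 and passed, in a fit where 39.1% of all genes passed.

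**Figure D2:**
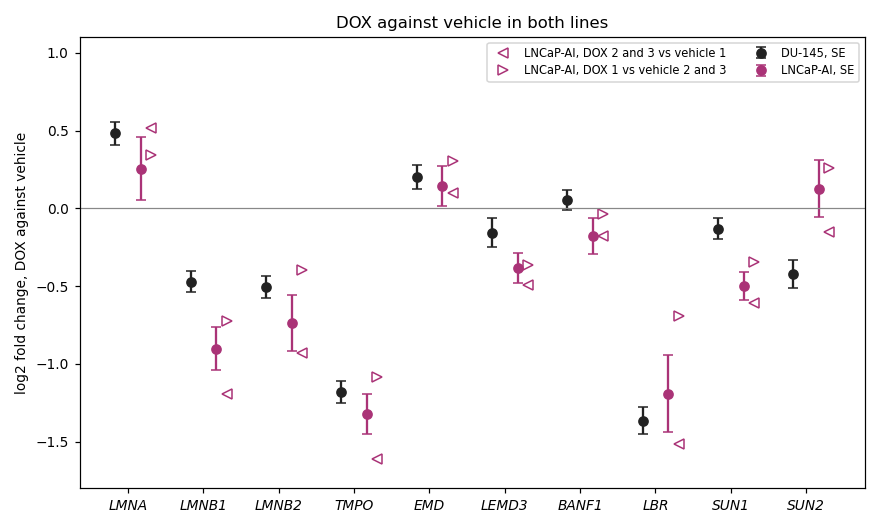
The log2 difference of DOX against vehicle (vertical axis) is plotted for each gene (horizontal axis), black for DU-145 and purple for LNCaP-AI, with SE bars. Open triangles give the LNCaP-AI difference within each side of the first principal component, and both triangles lie below 0 for TMPO, LBR, LMNB1, LMNB2, SUN1, LEMD3 and BANF1 and above 0 for LMNA and EMD.

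The balance of A-type to B-type lamin RNA was followed as a ratio within each sample, which needs no library scaling. Counts per base of exon were used, over all annotated exons of a gene. In DU-145 cells log2(LMNA/LMNB1) was -0.24, -0.29 and -0.29 with vehicle and 0.65, 0.75 and 0.66 with DOX. The ratio was below 1 in every vehicle sample and above 1 in every DOX sample, and the group means of -0.27 ± 0.0262 and 0.69 ± 0.0573 (SD, n = 3) differed by 0.96. In LNCaP-AI cells the values were -3.23, -2.35 and -2.09 with vehicle and -1.14, -1.54 and -1.50 with DOX. No samples overlapped here either, although LMNA alone overlapped in this line, and the means of -2.56 ± 0.602 and -1.40 ± 0.219 (SD, n = 3) differed by 1.16, with 1.71 and 1.07 within the 2 sides. LMNA made up 28.4% ± 0.292 of the RNA of the 3 lamin genes in DU-145 vehicle and 43.8% ± 0.211 in DU-145 DOX samples. In LNCaP-AI cells the share was 10.4% ± 2.97 with vehicle and 19.6% ± 1.13 with DOX (SD, n = 3). By the longest transcript the DU-145 vehicle share was 44.6% and the LNCaP-AI vehicle share 19.3%. The change of the log2 ratio with DOX is the same for any gene length used, but the shares and the level of the ratio are not: the DU-145 vehicle mean was 0.84 by the longest transcript and 0.58 by the longest coding sequence, so whether LMNA is above LMNB1 there depends on the length. The change in the ratio combines the LMNA and LMNB1 differences given above and is no separate evidence.

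**Figure D3:**
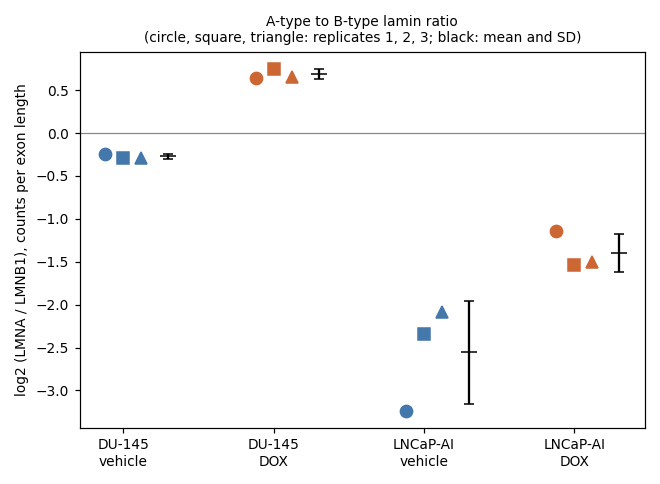
The vertical axis gives log2 of the LMNA to LMNB1 ratio, from counts per exon length, for each sample of the 4 groups on the horizontal axis, with the mean and SD (n = 3) in black. DOX samples were above the vehicle samples of their line in both lines, and LNCaP-AI samples were below DU-145 samples under either treatment.

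Of the other LEM domain genes, EMD encodes emerin and LEMD3 encodes MAN1, which also binds receptor-regulated SMAD proteins. EMD had 38.4 to 44.4 CPM with vehicle and 47.0 to 50.2 CPM with DOX in DU-145 cells, a log2 difference of 0.20 (SE 0.0792) whose call was lost in 9 of 13 alternatives. In LNCaP-AI cells EMD overlapped, at 74.5 to 91.3 CPM with vehicle and 81.8 to 102 CPM with DOX. LEMD3 overlapped in DU-145 cells, at 41.3 to 52.4 and 40.0 to 45.9 CPM. In LNCaP-AI cells its vehicle range of 62.6 to 74.1 CPM lay above the DOX range of 49.2 to 53.5 CPM, but the difference of -0.38 (SE 0.0963, -0.50 and -0.37 within the 2 sides) missed the threshold, which it passed in 6 of 14 alternatives. BANF1, whose product bridges DNA and LEM domain proteins, ranged from 103 to 111 CPM over all DU-145 samples and from 77.6 to 103 CPM over all LNCaP-AI samples, with overlap in both. EMD, LEMD3 and BANF1 thus had smaller differences than TMPO in both lines.

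SUN1 and SUN2 form the inner membrane part of the link to the cytoskeleton. SUN1 in DU-145 cells had 139.7, 141 and 151 CPM with vehicle and 132.5, 131.0 and 130.8 CPM with DOX. The DOX samples were just below vehicle, and the log2 difference of -0.13 (SE 0.0658) did not pass the threshold. In LNCaP-AI cells SUN1 had 124, 121 and 118 CPM with vehicle and 94.2, 81.3 and 80.8 CPM with DOX, a difference of -0.50 (SE 0.0884, -0.61 and -0.34 within the 2 sides). This SUN1 call was lost in 4 of 14 alternatives, with no change of direction. SUN2 in DU-145 cells had 34.9, 31.5 and 33.4 CPM with vehicle and 26.8, 25.4 and 22.3 CPM with DOX, without overlap (log2 difference -0.42, SE 0.0903). In LNCaP-AI cells SUN2 had 64.1, 38.4 and 53.2 CPM with vehicle and 54.8, 57.0 and 58.2 CPM with DOX. The DOX samples there lay inside the vehicle range, with a difference of 0.13 (SE 0.186) and opposite signs within the 2 sides, -0.15 and 0.26. SUN2 overlaps DNAL4 on the same strand and SUN1 overlaps GET4 on the same strand, so reads in the shared stretches are uncertain.

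Whether DOX acted differently in the lines was fitted as an interaction over all 12 samples. None of the 10 genes passed (edgeR, adjusted), against 9.18% of the 16800 genes tested, 5.43% higher and 3.76% lower in LNCaP-AI cells. At an unadjusted p under 0.05 there were 3 of the 10 and 4275 of all genes, and DESeq2 called 1, SUN1, against 13.6% of all genes. These counts are read as no result about the 10. These 3 were SUN1 at -0.33 (SE 0.0985, LNCaP-AI minus DU-145 on the log2 scale), SUN2 at 0.59 (SE 0.211) and LMNB1 at -0.40 (SE 0.1465). The interaction is built from the DOX contrast used to choose the genes, so its values for them are a description. For TMPO the 95% interval of the difference between the lines was -0.41 to 0.19 and for LBR it was -0.42 to 0.83. A difference of such a size in either direction is not told apart from none. In simulated data this fit recovered 11.5% of genes changed by 1 on the log2 scale.

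Vehicle samples of the 2 lines were then compared. This was not the contrast used to choose the genes, but the same vehicle samples were part of the one that was. The p-values for the 10 are therefore not fully independent of the choice. CPM in this comparison were TMM-normalised over the vehicle samples of both lines, so they differ from the values within a line given above. LMNA had the largest difference of the 10 genes: DU-145 cells had 557 ± 30.9 and LNCaP-AI cells 127 ± 31.4 CPM (SD, n = 3, log2 difference 2.13, SE 0.185, edgeR adjusted p = 7.26e-05). LMNB2 was also higher in DU-145 cells, at 485 ± 23.9 against 248 ± 25.1 CPM (SD, n = 3, log2 difference 0.97, SE 0.103, edgeR adjusted p = 0.000179), whereas the other B-type lamin gene, LMNB1, gave -0.14 with a 95% interval of -0.45 to 0.17 (edgeR adjusted p = 0.371). TMPO was higher in DU-145 cells by 0.70 (SE 0.118, edgeR adjusted p = 0.00162), SUN1 by 0.47 (SE 0.0798, edgeR adjusted p = 0.00157) and LBR by 0.53 (SE 0.108, edgeR adjusted p = 0.00373). EMD was higher in LNCaP-AI cells, at 75.8 ± 9.15 against 45.8 ± 3.55 CPM (SD, n = 3, log2 difference -0.73, SE 0.119, edgeR adjusted p = 0.00135). BANF1 was higher in DU-145 cells by 0.32 (SE 0.0912, edgeR adjusted p = 0.0168), but this call was lost in 6 of 12 alternatives. SUN2 at -0.42 (edgeR adjusted p = 0.0713) and LEMD3 at -0.25 (edgeR adjusted p = 0.106) did not pass, but SUN2 did in 4 and LEMD3 in 3 of 12 alternatives, both higher in LNCaP-AI cells. In all, 7 of 10 genes passed, 6 higher and 1 lower in DU-145 cells, against 65.1% of the 15628 genes tested, 30.2% higher and 35% lower. The samples of the lines did not overlap for 8 of 10 genes, against 73.2% of all genes. Line, medium and anything else that differed between the cultures cannot be told apart in this contrast. The LNCaP-AI vehicle samples also lie on both sides of the division, whose part was not tested. Without LNCaP-AI vehicle 1, 8 of 10 passed (71.5% of all genes), with SUN2 and LEMD3 added and BANF1 lost. Without vehicle 2 it was 7 (57.1%) and without vehicle 3 it was 6 (56.2%). LMNA, LMNB2, TMPO, LBR, SUN1 and EMD passed each time.

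Levels between genes were compared as RPKM over all annotated exons. In DU-145 vehicle samples LMNB2 (85.4 ± 6.74 RPKM, SD, n = 3), LMNB1 (78.3 ± 5.55) and BANF1 (73.5 ± 2.11) came first, each overlapping the next. LMNA followed at 65.0 ± 5.73 RPKM and TMPO at 50.8 ± 3.26 RPKM, and SUN2 was lowest at 4.12 ± 0.341 RPKM. With DOX the order changed at the top, with LMNA first at 90.7 ± 3.32 RPKM, and TMPO was at 22.4 ± 0.520 RPKM, beside EMD at 25.0 ± 1.12 RPKM. In LNCaP-AI vehicle samples LMNB1 was first at 93.5 ± 16.0 RPKM and LMNA seventh at 16.1 ± 4.14 RPKM, overlapping LEMD3 at 11.5 ± 0.972 RPKM. With DOX, LMNB1 at 50.3 ± 1.52 RPKM overlapped BANF1 at 56.7 ± 8.03 RPKM, and TMPO at 13.7 ± 1.01 RPKM overlapped LBR at 13.1 ± 4.96 RPKM. SUN2 was the lowest gene in all 4 groups by this length. The order depends on the length used: TMPO was above EMD in DU-145 DOX samples by the longest transcript (46.0 against 38.9 RPKM), and by the longest coding sequence BANF1, a very short gene, came first in DU-145 vehicle samples at 412 ± 11.8 RPKM.

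The genes most like TMPO over the 12 samples were found by the root mean square difference of log2 CPM centred on each line's mean, among 8358 genes with a mean of at least 10 CPM in both lines. The 5 nearest were OSBPL8 (0.0879), WARS1 (0.104), FAM83D (0.115), MAD2L1 (0.121) and GTSE1 (0.129), against a median of 0.66 over the candidates. OSBPL8 encodes a lipid transfer protein of the endoplasmic reticulum and nuclear envelope, WARS1 a tryptophanyl-tRNA synthetase, MAD2L1 a spindle checkpoint protein, and FAM83D and GTSE1 spindle-associated proteins. LBR ranked 53 (0.210), LMNB1 198 and LMNB2 325, while LMNA ranked 7403 of 8358. This likeness uses the DOX differences that led to the choice of TMPO and is a description.

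Genes of the nuclear envelope outside the 10 were followed through 83 genes in 7 lists. These lists too were chosen with earlier results of these data known. Their counts and p-values below are therefore a description and no evidence about the lists. In DU-145 cells 80 could be tested, and 47 passed (58.8%), 20 higher and 27 lower, beside 51.5% of all genes. In LNCaP-AI cells 81 could be tested, and 18 passed (22.2%), 2 higher and 16 lower, beside 12.7% of all genes. The median log2 difference over the lists was -0.03 in DU-145 and -0.33 in LNCaP-AI cells. The LNCaP-AI count was 0 without DOX 2 or without DOX 3, when 1 gene of the whole table was called in each case. It was 11 without vehicle 2 (7.25% of all genes) or without vehicle 3 (6.64%), and 33 without DOX 1 (23.6%).

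**Figure D4:**
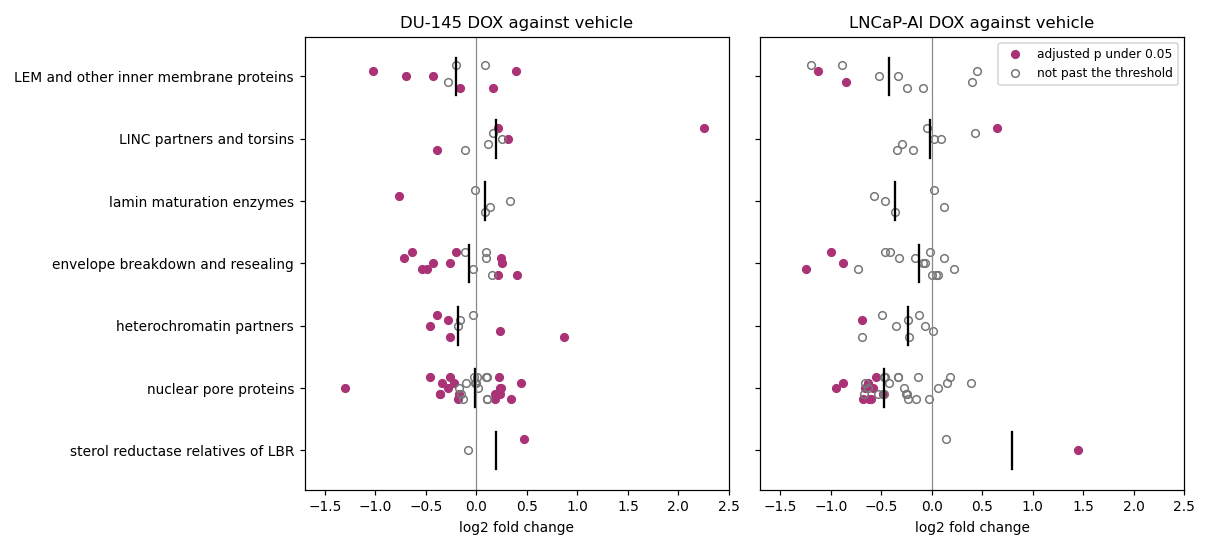
Each point is 1 gene of a nuclear envelope list (rows), placed by its log2 difference of DOX against vehicle (horizontal axis), in DU-145 cells on the left and LNCaP-AI cells on the right. Filled points passed the test and vertical bars are list medians. Nuclear pore genes lay on both sides of 0 in DU-145 cells (18 of 31 passed, 8 higher and 10 lower), and the 10 that passed in LNCaP-AI cells were all lower.

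Among LEM and other inner membrane proteins, 6 of 9 passed in DU-145 cells, 2 higher and 4 lower, and 2 of 10 in LNCaP-AI cells, both lower. NEMP2, a nuclear envelope membrane protein gene, fell in both, by 1.02 on the log2 scale in DU-145 (SE 0.126, edgeR adjusted p = 1.55e-06) and by 0.85 in LNCaP-AI cells (SE 0.157, edgeR adjusted p = 0.0246, -1.01 and -0.69 within the 2 sides). Its relative NEMP1 fell by 0.17 in DU-145 (edgeR adjusted p = 0.0467) and by 1.13 in LNCaP-AI cells (SE 0.154, edgeR adjusted p = 0.0145, -1.42 and -0.78 within the 2 sides). TMEM43, whose product binds emerin, fell by 0.70 in DU-145 cells (SE 0.0903, edgeR adjusted p = 2.8e-06). TOR1AIP1 and TOR1AIP2, which encode the torsin activators LAP1 and LULL1, rose there by 0.17 (edgeR adjusted p = 0.0398) and 0.39 (edgeR adjusted p = 0.000164).

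Of the LINC partners and torsins, 4 of 8 passed in DU-145 cells, 3 higher and 1 lower, and 1 of 8 in LNCaP-AI cells. SYNE1, which encodes nesprin-1, the outer membrane partner of SUN proteins, rose in both, by 0.31 in DU-145 (SE 0.0744, edgeR adjusted p = 0.00182) and by 0.65 in LNCaP-AI cells (SE 0.156, edgeR adjusted p = 0.0471, 0.58 and 0.55 within the 2 sides). SUN3, a SUN gene known from testis, passed in DU-145 cells (edgeR adjusted p = 0.000548) at 13, 19 and 13 counts in DOX samples, but its vehicle counts of 2, 5 and 2 lie at or near the floor of 3 counts, so no fold is given. TOR3A fell by 0.39 in DU-145 cells (edgeR adjusted p = 0.00094). Of the lamin maturation enzymes, which process the tail of prelamin A and B-type lamins, 1 of 5 passed in DU-145 cells and 0 of 5 in LNCaP-AI cells. That gene was RCE1, the protease that trims farnesylated proteins, which fell by 0.76 (SE 0.129, edgeR adjusted p = 6.51e-05).

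Of genes for envelope breakdown and resealing, 11 of 16 passed in DU-145 cells, 4 higher and 7 lower, and 3 of 16 in LNCaP-AI cells, all lower. CCNB1, the mitotic cyclin that with CDK1 phosphorylates lamins, fell by 0.64 in DU-145 (SE 0.0745, edgeR adjusted p = 8.47e-07) and by 1.00 in LNCaP-AI cells (SE 0.152, edgeR adjusted p = 0.0171, -1.23 and -0.68 within the 2 sides). CDK1 fell by 0.43 in DU-145 (edgeR adjusted p = 5.17e-05) and by 0.88 in LNCaP-AI cells (SE 0.156, edgeR adjusted p = 0.0227, -1.17 and -0.76 within the 2 sides). LPIN2, a phosphatidate phosphatase, fell by 0.72 in DU-145 cells (edgeR adjusted p = 1.67e-07). The ESCRT-III genes CHMP4B and IST1, which act in sealing the envelope, rose there by 0.40 (edgeR adjusted p = 0.000187) and 0.25 (edgeR adjusted p = 0.00385).

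Of the heterochromatin partners, 6 of 9 passed in DU-145 cells and 1 of 9 in LNCaP-AI cells. The 3 genes of heterochromatin protein 1, which binds LBR, went different ways in DU-145 cells: CBX5 rose by 0.86 (SE 0.0673, edgeR adjusted p = 4.34e-09), while CBX3 fell by 0.46 (edgeR adjusted p = 2.07e-05) and CBX1 by 0.39 (edgeR adjusted p = 7.55e-05). HDAC3, which binds LAP2 and emerin, rose by 0.24 (edgeR adjusted p = 0.00725). SUV39H2, a histone H3 lysine methyltransferase, fell by 0.28 in DU-145 (edgeR adjusted p = 0.00699) and in LNCaP-AI cells by 0.69 (SE 0.135, edgeR adjusted p = 0.0274, -0.89 and -0.45 within the 2 sides).

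Of the 31 nuclear pore genes, NUP43, a Y-complex subunit, fell in both lines, by 1.30 in DU-145 (SE 0.0847, edgeR adjusted p = 3.65e-10) and by 0.95 in LNCaP-AI cells (SE 0.142, edgeR adjusted p = 0.0163, -1.14 and -0.66 within the 2 sides). In DU-145 cells SEH1L of the same complex fell by 0.36 (edgeR adjusted p = 0.000148), while SEC13 rose by 0.44 (edgeR adjusted p = 2.03e-05) and RANBP2, of the cytoplasmic filaments, by 0.34 (edgeR adjusted p = 0.000448). In LNCaP-AI cells NUP50, of the nuclear basket, fell by 0.69 (SE 0.0925, edgeR adjusted p = 0.0143, -0.84 and -0.52 within the 2 sides). Of the 2 sterol reductase relatives of LBR, TM7SF2, which carries out the same reaction as LBR, rose in LNCaP-AI cells from 34.5 ± 9.41 to 94.0 ± 11.1 CPM (SD, n = 3, log2 difference 1.45, SE 0.211, edgeR adjusted p = 0.0158, 1.15 and 1.48 within the 2 sides). In DU-145 cells TM7SF2 gave -0.08 (edgeR adjusted p = 0.58), and DHCR7 rose by 0.47 (edgeR adjusted p = 2.7e-05).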

How the data were processed

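The authors prepared stranded mRNA libraries and aligned reads to GRCh38.p7 with STAR 2.7.0. CASAVA 1.8.2 and DESeq2 1.24.0 are also named in the submitters' processing notes, and the counting tool is not given in the sources used here. The deposited values are raw counts per gene, with no normalization. Symbols were found for 56948 of 58037 identifiers through the GENCODE annotation. Counts were TMM-normalised and fitted with edgeR 4.0.16 (glmQLFit, glmQLFTest, two-sided) after a filter of 10 or more counts in 3 or more samples, with Benjamini-Hochberg adjustment and a threshold of 0.05. SE was the log2 difference over the square root of F. The code was tested on simulated data in which 200 genes were changed by 1 on the log2 scale. Each simulated gene had the spread that the fit gives to genes of its level, and the division of the LNCaP-AI samples was not simulated. It recovered 99.5% of them in DU-145, 25% in LNCaP-AI, 11.5% in the interaction and 53% in the vehicle comparison. A gene that did not pass outside the DU-145 fit may therefore still differ. Replicates differed by a chi-square per degree of freedom of at least 2.53, so all samples were kept. P-values measure the spread between the samples of a group, which in LNCaP-AI cells includes the division across treatment. The chi-square was 67.0 and 78.3 for vehicle 1 against vehicle 2 and vehicle 3, and 10.2 between vehicle 2 and vehicle 3. It was 45.2 and 46.8 for DOX 1 against DOX 2 and DOX 3, and 2.53 between DOX 2 and DOX 3. Replicate numbers were not used as pairs in the main fits, and a check of pairing could not decide it in LNCaP-AI cells. The 10 genes and all lists were chosen with earlier results of these data known. All 10 were named, and per line the 2 called genes of lowest adjusted p in each direction of each other list. Loci are from GENCODE on GRCh38 and promoters from RefSeq. Alternatives were DESeq2 1.42.0, other scalings and filters, a single fit, a replicate block and leaving out each sample.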

Additional observations from a re-analysis of the deposited data

Results flagged for a closer look

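The DOX effect differed between the lines for some genes (LNCaP-AI minus DU-145, log2 scale, interaction over 12 samples in edgeR). Of the 82 nuclear envelope genes tested outside the 10, 12 passed (14.6%, against 9.18% of all genes). Given here are 4 of them that are named above, together with MUC1, and naming by the lowest p within a line favours genes that differ between the lines. TM7SF2 gave 1.57 (SE 0.230, edgeR adjusted p = 0.00318), with 27.6 to 45.2 CPM in vehicle and 81.3 to 100.9 CPM in DOX samples of LNCaP-AI cells and 11.5 to 13.4 CPM over the DU-145 samples. CBX5 gave -1.05 (SE 0.142, edgeR adjusted p = 0.00213), with 176 to 183 CPM in vehicle and 310 to 342 CPM in DOX samples of DU-145 cells and overlapping samples in LNCaP-AI cells. NEMP1 gave -0.93 (SE 0.165, edgeR adjusted p = 0.00772) and NUP50 gave -0.52 (SE 0.102, edgeR adjusted p = 0.0128). MUC1 gave 1.95 (SE 0.405, edgeR adjusted p = 0.0241), a value that rests on 3 counts in each DU-145 DOX sample. These 5 genes were looked at because they were named above, and the cause of each difference was not tested.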

How the results depend on the processing

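Under the alternatives, TMPO, LBR, LMNB1 and LMNB2 kept their direction with DOX in both lines, with TMPO between -1.22 and -1.16 in DU-145 and between -1.40 and -1.19 in LNCaP-AI cells. In DU-145 cells the count of the 10 genes was 4 with all 12 samples in a single fit (24.3% of all genes). It was 6 to 8 when a sample was left out (44.2% to 52.8% of all genes). The count of the other envelope genes was 20 and 33 to 51 in the same fits. In LNCaP-AI cells leaving out a sample gave 0 to 5 of the 10 and 0 to 33 of the other envelope genes (0.00632% to 23.6% of all genes). The other envelope genes numbered 36 with DESeq2 (21.9% of all genes) and 34 in the single fit (23.4%). They numbered 49 with the side as a covariate (39.1%), chosen after seeing the data. With the replicate block 0 of the 10 and 0 of the other envelope genes passed in LNCaP-AI cells (2909 of all genes at an unadjusted p under 0.05), and the block changed the count of neither list in DU-145 cells. Deviations of same-numbered samples had a mean r of 0.042 in DU-145 cells, where 2 of 3 correlated best with their own number. The mean r was -0.88 in LNCaP-AI cells, where 0 of 3 did. There vehicle 1 and DOX 1 lie on opposite sides of the division, so the check cannot decide pairing in that line. For the difference between lines, the count of the 10 was 1 with DESeq2 (13.6% of all genes) and 3 with the side covariate (24.5%). It was 0 to 2 when a sample was left out (4.43% to 21.3%). Signs reversed there for EMD (0.0301 with upper-quartile scaling, 0.0407 with the side covariate, -0.13 to 0.0741 when a sample was left out), TMPO (0.0127 without LNCaP-AI vehicle 1, lowest -0.17 without vehicle 3) and LBR (-0.14 without LNCaP-AI DOX 1, highest 0.36 without DOX 3), and in LNCaP-AI cells for SUN2 (-0.0551 without vehicle 2, highest 0.30 without vehicle 1). Over all genes, DU-145 calls were 7033, or 4083 in the single fit. LNCaP-AI calls were 2043, against 3517 with DESeq2, 3933 in the single fit, 0 with the block, 6271 with the side covariate and 1 to 3538 without a sample. Interaction calls were 1543, against 884 without the filter, 52 with the block, 4109 with the side covariate and 737 to 3471 without a sample. The causes were not tested. Depth limits the MUC1 fold, since each DU-145 DOX sample has 3 counts.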
